A study of Sus scrofa with 21 samples.

Results

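The genes studied here are LYZ, TYROBP, AIF1, LAPTM5 and GPNMB, which phagocytes are known for, and the chemokine CXCL14, which other cells also make, followed through myocardial infarction in the pig. They were taken by name, as every probe set of the Affymetrix porcine array that the platform annotation gives 1 of these symbols or, where it gives none, that the authors matched to that human gene. The 6 genes, of 7660 named on the array, had 12 probe sets, of which 6, 1 for each gene, passed the filter on low values. The 21 arrays came from 12 female crossbreed pigs (Landrace x Large White) of 30 to 40 kg, an age not being labelled. In 9 pigs surgeons closed off a marginal branch of the circumflex coronary artery with ligatures that were left in place, which gave an infarct. From each of these pigs 1 biopsy was taken from the infarct core (IC), in the scar of the left ventricle, and 1 from the remote myocardium (RM), in the interventricular septum. Pigs 7, 8 and 9 were sampled at 1 week (day 6 by the labels), pigs 18, 20 and 22 at 4 weeks (day 30) and pigs 2, 3 and 5 at 6 weeks (day 45). Control myocardium (CM) came from pigs 30, 31 and 33, labelled as sham operated at day 0 and called healthy animals in the study's methods, so there was no control at each later stage. IC and RM differ in the wall of the heart they came from as well as in injury, and these cannot be told apart. The study's methods name no site in the heart for CM, so a difference of site from CM cannot be set aside either.

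Macrophages enter the infarct from blood monocytes and from cells resident in the heart, clear dead myocytes and matrix, and are followed by fibroblasts that lay down the scar. Taking up debris needs surface receptors and their adaptors, a moving actin skeleton, and lysosomes that digest the cargo, while chemokines draw further cells in. TYROBP, also called DAP12, is a membrane adaptor that passes on signals of receptors such as TREM2 on myeloid cells and of activating receptors on natural killer cells. AIF1, also called IBA1, binds actin and is a widely used macrophage marker. LYZ is lysozyme, an enzyme that cuts bacterial cell walls and is made by macrophages and neutrophils. LAPTM5 is a lysosomal membrane protein of blood cells, GPNMB is a glycoprotein of lysosomes and phagosomes that macrophages make when they handle debris, and CXCL14 is a chemokine that epithelium and fibroblasts also make. In whole tissue, fewer cells of a type and less RNA in each cell cannot be told apart.

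All values below are log2 intensities after robust multichip average (RMA) normalization, and a difference of 1 is a doubling. The level of one probe set says nothing of the level of another. A gene was called where its adjusted p was under 0.05. No detection calls were used here, and the authors' filter level of 3 serves as a guide to low values. TYROBP, AIF1 and LAPTM5 were above 3 in 21 arrays, LYZ in 16, GPNMB in 15 and CXCL14 in 10. Of the 12 arrays outside IC, 7 were above 3 for LYZ, 6 for GPNMB and 1 (control pig 31) for CXCL14, so these 3 genes passed the filter of 10 arrays through the tissue in which they were high. The 12 probe sets of the poly-A labelling controls averaged 3.24 to 4.74 in IC at 1 week, 5.03 to 5.60 in IC at 4 weeks and 4.00 to 5.34 in the other groups. Their part in the results was not tested.

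**Figure D1:**
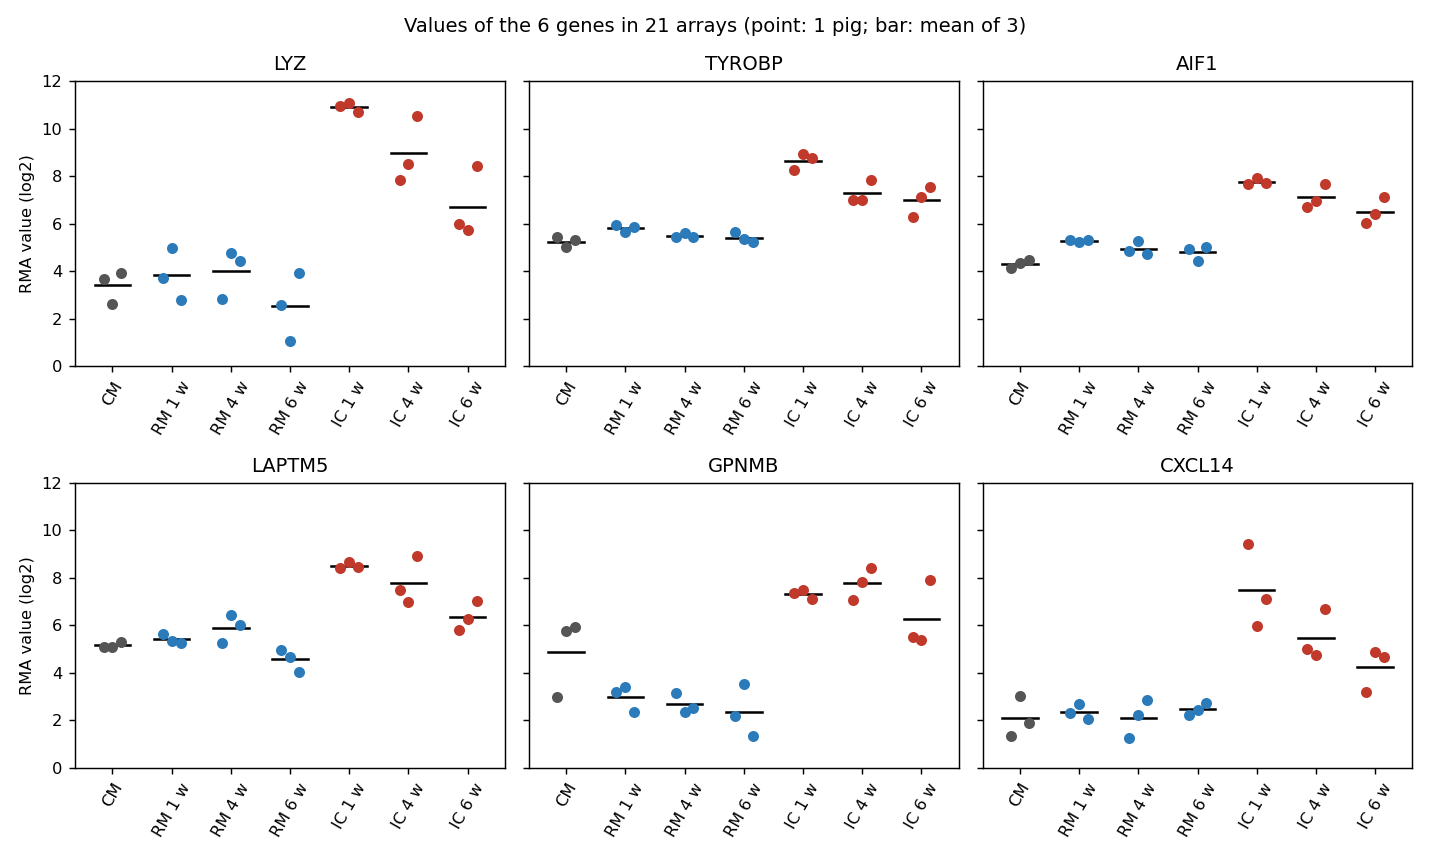
RMA values (log2, vertical axis) of the 6 genes in the control (grey), remote (blue) and infarct core (red) arrays at 1, 4 and 6 weeks, with a point for each pig and a bar for the mean of 3. Infarct core arrays lay above every other array for LYZ, TYROBP, AIF1 and CXCL14, and GPNMB was lower in every remote array than in control pigs 31 and 33.

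TYROBP stood at 5.43, 5.00 and 5.30 in CM pigs 30, 31 and 33. In IC it was 8.25, 8.92 and 8.77 at 1 week, 6.98, 7.00 and 7.85 at 4 weeks, and 6.30, 7.12 and 7.53 at 6 weeks. In RM it ranged from 5.23 to 5.94 over the 9 arrays. No IC array overlapped an RM or CM array, the lowest IC value being 6.30 and the highest of the others 5.94. By group mean the order was IC at 1, 4 and 6 weeks, RM at 1, 4 and 6 weeks, then CM, and the ranges of neighbours overlapped except between IC at 1 and 4 weeks, between IC at 6 weeks and RM at 1 week, and between RM at 1 and 4 weeks.

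AIF1 stood at 4.14, 4.35 and 4.45 in the 3 CM arrays. In IC it was 7.66, 7.90 and 7.72 at 1 week, 6.70, 6.95 and 7.67 at 4 weeks, and 6.02, 6.40 and 7.10 at 6 weeks. The RM arrays read 5.30, 5.23 and 5.31 at 1 week, 4.84, 5.27 and 4.73 at 4 weeks, and 4.94, 4.44 and 5.03 at 6 weeks. Thus RM at 1 and 4 weeks lay wholly above CM for this actin-binding protein and wholly below IC, and the RM array of pig 3 at 6 weeks fell within the CM range. The order of the group means was that of TYROBP, with overlap between all neighbours except IC at 6 weeks and RM at 1 week.

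LYZ read 3.68, 2.62 and 3.92 in CM, and 10.93, 11.07 and 10.70 in IC at 1 week. At 4 weeks the IC values were 7.82, 8.52 and 10.55, and at 6 weeks 5.98, 5.72 and 8.42. The IC pigs at 1 week were close to each other, whereas at 4 and 6 weeks pigs 22 and 5 lay more than 2 above the others, so that IC at 4 weeks overlapped IC at 6 weeks. The RM arrays, from 1.05 in pig 3 to 4.99 in pig 8, overlapped CM at every stage, and all of them stayed under the lowest IC value of 5.72.

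LAPTM5 read 5.10, 5.08 and 5.30 in CM and 8.41, 8.64 and 8.45 in IC at 1 week. In IC it was 7.49, 6.99 and 8.91 at 4 weeks and 5.78, 6.27 and 7.02 at 6 weeks. In RM it was 5.64, 5.35 and 5.26 at 1 week, 5.27, 6.41 and 6.03 at 4 weeks, and 4.98, 4.68 and 4.03 at 6 weeks. RM at 6 weeks thus lay wholly below CM for this lysosomal membrane protein, and RM at 4 weeks overlapped IC at 6 weeks. Its second probe set passed 3 in 3 arrays and was tested only in a fit without a filter. That probe set read 2.81 to 3.85 in IC at 1 week, 1.91 to 3.41 at 4 weeks, 1.29 to 1.51 at 6 weeks and 0.64 to 1.48 elsewhere.

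GPNMB differed from the other 5 genes in its order. It read 2.97 in control pig 30 but 5.77 and 5.94 in pigs 31 and 33. In IC it was 7.34, 7.48 and 7.10 at 1 week, 7.07, 7.83 and 8.43 at 4 weeks, and 5.51, 5.40 and 7.90 at 6 weeks. In RM the values were 3.20, 3.39 and 2.34 at 1 week, 3.16, 2.36 and 2.53 at 4 weeks, and 2.18, 3.52 and 1.36 at 6 weeks. The group means ran IC at 4 weeks, IC at 1 week, IC at 6 weeks, CM, then RM at 1, 4 and 6 weeks, with overlap between all neighbours. CM therefore lay between IC and RM, and overlapped RM through pig 30 alone. Of the 4 probe sets of GPNMB that did not pass the filter, 1, called its second here, read 3.21 to 3.80 in IC at 1 week and 2.82 to 3.86 at 4 weeks. It read 1.38 to 3.14 in IC at 6 weeks and 0.80 to 1.43 elsewhere, and the other 3 stayed between 0.36 and 1.45 in all 21 arrays.

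CXCL14 was low outside the infarct, at 1.33, 3.03 and 1.88 in CM and from 1.27 to 2.84 in RM. In IC it was 9.43, 5.98 and 7.10 at 1 week, 4.99, 4.74 and 6.69 at 4 weeks, and 3.21, 4.86 and 4.65 at 6 weeks. The lowest IC array, pig 2 at 6 weeks, was 3.21 against 3.03 in control pig 31. At 1 week pig 7 stood far above pigs 8 and 9 in this chemokine, and the 3 IC groups overlapped in sequence. The second probe set, above 3 in 7 arrays and tested only in a fit without a filter, read 8.02, 4.56 and 6.05 in IC at 1 week, 4.68, 3.40 and 6.34 at 4 weeks, 2.27, 4.01 and 2.75 at 6 weeks and 1.37 to 2.48 elsewhere, with the same pig highest at each stage.

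The first comparison asked how IC differed from control tissue at each stage. All 6 genes were higher in IC than in CM at 1 and 4 weeks, and 5 of 6 at 6 weeks, when GPNMB missed the threshold. Of all 12180 probe sets tested, 26.0% were called higher at 1 week, 25.3% at 4 weeks and 21.0% at 6 weeks. The median difference of the 6 genes was 3.43, 2.84 and 1.95 at the 3 stages, and that of all probe sets -0.058, -0.056 and -0.084. These counts are a description, since LYZ, GPNMB and CXCL14 entered through the IC arrays. With no filter on any probe set, the same genes were called in IC against CM at each stage by the same probe sets.

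The adaptor TYROBP was 3.40 higher in IC than in CM at 1 week (SE 0.27, n = 3 and 3, limma adjusted p = 2.69e-08), a 10.6-fold difference. Its difference was 2.04 at 4 weeks (adjusted p = 6.37e-06), then 1.74 at 6 weeks (adjusted p = 6.64e-05). AIF1 was 3.45 higher at 1 week (SE 0.25, limma adjusted p = 1.24e-08), 2.79 higher at 4 weeks (adjusted p = 9.52e-08), then 2.19 higher at 6 weeks (adjusted p = 3.58e-06). Both kept 95% intervals clear of 0 at all 3 stages, the lowest bound being 1.17 for TYROBP and 1.65 for AIF1 at 6 weeks.

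Among the lysosomal proteins, LYZ was 7.49 higher in IC than in CM at 1 week (SE 0.83, limma adjusted p = 8.25e-07). With control values of 2.62 to 3.92, around the filter level, no fold is given. The difference was 5.55 at 4 weeks (adjusted p = 2.01e-05), then 3.30 at 6 weeks (adjusted p = 0.00342). LAPTM5 was 3.34 higher at 1 week (SE 0.40, limma adjusted p = 1.88e-06), 2.63 at 4 weeks (adjusted p = 2.29e-05), then 1.20 at 6 weeks (adjusted p = 0.0196). The LAPTM5 call at 6 weeks was lost without pig 5 (0.87, adjusted p = 0.116) and without control pig 31 (1.16, adjusted p = 0.0525). In the fit without a filter the second LAPTM5 probe set was called higher at 1 and 4 weeks, but not at 6 weeks (0.46, limma adjusted p = 0.288).

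GPNMB was 2.42 higher in IC at 1 week (SE 0.72, limma adjusted p = 0.00913) and 2.89 at 4 weeks (adjusted p = 0.00266), and differed by 1.38 at 6 weeks (adjusted p = 0.127, 95% interval -0.14 to 2.90). Without control pig 30, whose GPNMB was low, the difference was 1.46 at 1 week (adjusted p = 0.0718), 1.92 at 4 weeks (adjusted p = 0.0207), then 0.42 at 6 weeks (adjusted p = 0.625). CXCL14 was 5.42 higher at 1 week (SE 0.70, limma adjusted p = 5e-06, and 7.92e-06 without a filter), then 3.39 at 4 weeks (adjusted p = 0.000545), then 2.16 at 6 weeks (adjusted p = 0.0179). No fold is given for CXCL14, which was under 3 in control pigs 30 and 33. At 6 weeks its call was lost when pig 3 (1.85, adjusted p = 0.0704), pig 5 (1.95, adjusted p = 0.0664), control pig 30 (1.78, adjusted p = 0.0763) or control pig 33 (2.06, adjusted p = 0.0506) was left out. In the fit without a filter the second CXCL14 probe set was called higher at 1 and 4 weeks, but not at 6 weeks (1.09, limma adjusted p = 0.271).

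**Figure D2:**
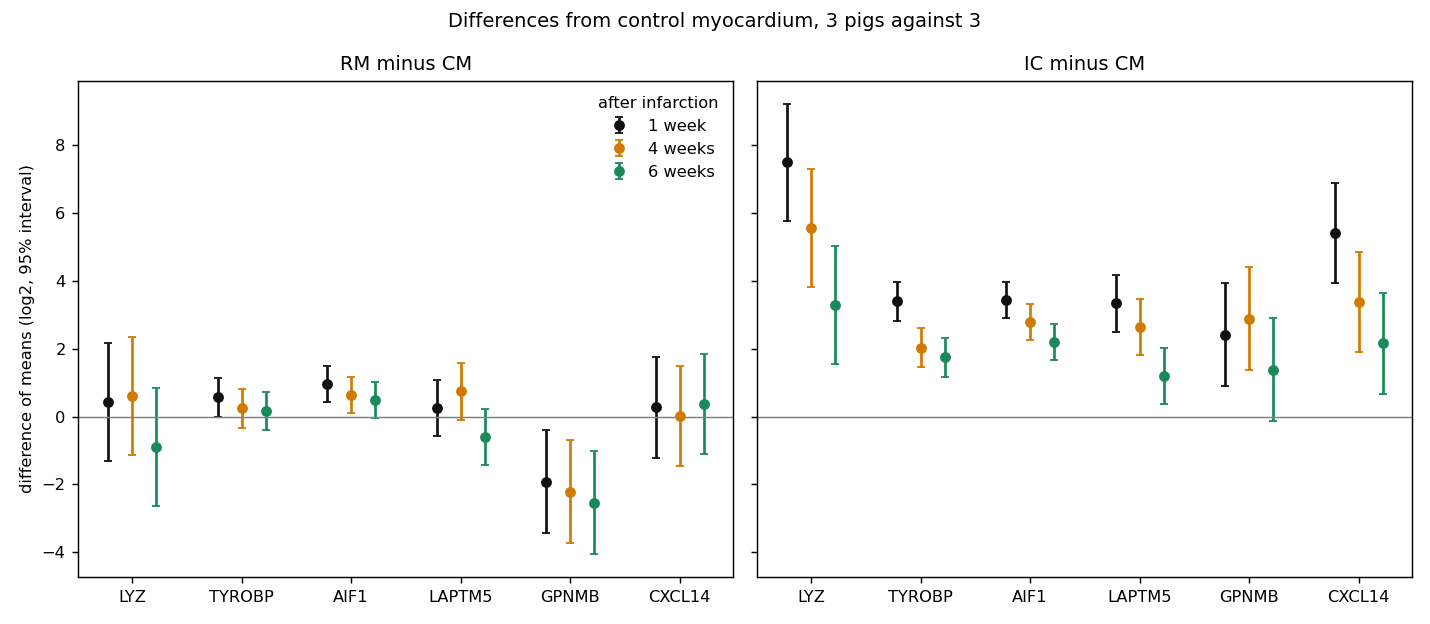
Differences from control myocardium (log2, vertical axis) for the 6 genes in remote myocardium (left) and infarct core (right) at 1, 4 and 6 weeks, as points with 95% intervals from the 7-group limma fit. In the infarct core, GPNMB at 6 weeks is the 1 interval that reaches 0, and in remote myocardium GPNMB lies below 0 at every stage, by 1.92 to 2.54.

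Control pig 30 differed from pigs 31 and 33 in some inflammatory genes as well as in GPNMB. The monocyte chemokine CCL2 read 7.77 in pig 30, and 3.49 and 3.67 in pigs 31 and 33. The neutrophil chemokine CXCL2 read 7.07, 4.20 and 3.21 in the same order, CCL4 7.56, 4.47 and 4.56, and the calgranulin S100A9 5.66, 0.86 and 1.76. These genes were chosen after their values were seen, and of 21 chemokine and receptor genes with a probe set 5 were more than 1 above the mean of the other control pigs in pig 30 and 11 were highest in it, as were 2 and 4 of 9 neutrophil genes. CXCR4 lay the other way, at 3.11 against 4.06 and 4.70. The other 5 of the 6 genes in pig 30 were within or below the range of pigs 31 and 33, except TYROBP, at 5.43 against 5.00 and 5.30. The part of these values in the GPNMB result was not tested.

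The second comparison asked whether tissue away from the infarct changed. None of the 6 genes was called in RM against CM at 1, 4 or 6 weeks by limma, where 1.13%, 1.08% and 0.197% of all probe sets were called in either direction. At an unadjusted p under 0.05 there were 3 of the 6 at 1 week (TYROBP, AIF1 and GPNMB), 2 at 4 weeks (AIF1 and GPNMB) and 1 at 6 weeks (GPNMB), and 14.2%, 16.7% and 12.5% of all probe sets. The median difference of the 6 genes was 0.35, 0.42 and -0.22 at the 3 stages, and that of all probe sets 0.025, 0.013 and -0.031. RM and IC were set against the same 3 CM arrays, so an odd control array enters both comparisons.

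AIF1 differed from CM by 0.97 in RM at 1 week (SE 0.25, limma adjusted p = 0.0771), 0.63 at 4 weeks (adjusted p = 0.225), then 0.49 at 6 weeks (adjusted p = 0.448). TYROBP differed by 0.57, 0.25 and 0.16 in the same order, with adjusted p from 0.35 to 0.857. LYZ differed by 0.42, 0.60 and -0.89, LAPTM5 by 0.26, 0.74 and -0.60, and CXCL14 by 0.27, 0.026 and 0.38, with adjusted p of 0.358 or more in each. The intervals were wide for LYZ, from -1.31 to 2.16 at 1 week, and the precision is that of 3 arrays a group.

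GPNMB differed from CM by -1.92 in RM at 1 week (SE 0.72, limma adjusted p = 0.226), -2.21 at 4 weeks (adjusted p = 0.136), then -2.54 at 6 weeks (adjusted p = 0.153). Over the 3 stages pooled it differed by -2.22 (SE 0.59, n = 9 and 3, limma adjusted p = 0.0849), and all 9 RM arrays lay below control pigs 31 and 33. The RM values, 1.36 to 3.52, lay around the filter level or below it. The second GPNMB probe set, under 3 in CM and RM, differed by -0.28 over the stages in the fit without a filter (limma adjusted p = 0.816). Averaging the GPNMB probe sets above 3 in any array gave -1.25 over the stages. In that pooled contrast 0.878% of all probe sets were called and again none of the 6 genes, with AIF1 at 0.70 (adjusted p = 0.126) and 2 of the 6 at an unadjusted p under 0.05, as were 14.2% of all probe sets. Without control pig 30, GPNMB was called lower in RM at 4 weeks (-3.17, adjusted p = 0.0354) and over the stages (-3.18, adjusted p = 0.0197). Array weights were estimated from these same values, by the scatter of each array around its group mean, and not from a separate measure of quality. With these weights GPNMB was called lower in RM at every stage, from -2.20 at 1 week (adjusted p = 0.0433) to -2.77 at 4 weeks (adjusted p = 0.00352). AIF1 was then called higher at 1 week (0.93, adjusted p = 0.0174) and 4 weeks (0.71, adjusted p = 0.0177).

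The third comparison set IC against RM of the same pig, which leaves out the control animals. All 6 genes were higher in IC at each stage, where 24.7%, 25.5% and 22.6% of all probe sets were called higher at 1, 4 and 6 weeks. The difference was above 0 in 9 of 9 pigs for every gene. These counts too are a description, since LYZ, GPNMB and CXCL14 entered through the IC arrays. The median of the 6 genes was 3.71, 2.76 and 1.78, against -0.076, -0.053 and -0.063 over all probe sets.

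Within pigs, LYZ was higher in IC by 7.21, 6.09 and 7.91 at 1 week (pigs 7, 8 and 9), by 4.98, 3.77 and 6.11 at 4 weeks (pigs 18, 20 and 22) and by 3.40, 4.67 and 4.49 at 6 weeks (pigs 2, 3 and 5). The means were 7.07, 4.95 and 4.19 (SE 0.43 each, limma with pig as a block, adjusted p = 4.34e-06, 1.31e-05 and 6.46e-05). The pigs of 1 week and those of 6 weeks did not overlap. LAPTM5 was higher by 2.77 to 3.30 at 1 week, 0.58 to 2.88 at 4 weeks and 0.81 to 2.98 at 6 weeks, with adjusted p of 0.00022, 0.00398 and 0.00684. Without pig 5 the LAPTM5 call at 6 weeks was lost (1.20, adjusted p = 0.0691). The second LAPTM5 probe set, fitted without a filter, was not called within pigs at 6 weeks (0.35, limma adjusted p = 0.415).

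TYROBP was higher in IC by 2.31, 3.28 and 2.90 at 1 week, 1.54, 1.39 and 2.43 at 4 weeks, and 0.65, 1.78 and 2.30 at 6 weeks. Its means were 2.83, 1.79 and 1.58 (SE 0.31, limma adjusted p = 4.87e-05, 0.00071 and 0.00215). AIF1 was higher by 2.48, 2.16 and 1.70 (SE 0.25, limma adjusted p = 3.37e-05, 6.22e-05 and 0.000478), with the smallest difference, 1.08, in pig 2. Pig 2 at 6 weeks also had the smallest difference of all 9 pigs in TYROBP, LYZ and CXCL14.

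GPNMB was higher in IC by 4.15, 4.09 and 4.77 at 1 week, 3.91, 5.46 and 5.91 at 4 weeks, and 3.33, 1.88 and 6.55 at 6 weeks. The means of 4.34, 5.09 and 3.92 (SE 0.68, limma adjusted p = 0.000441, 0.000153 and 0.0012) compare with 2.42, 2.89 and 1.38 against CM, RM lying below CM. CXCL14 was higher by 7.11, 3.31 and 5.02 at 1 week, 3.73, 2.52 and 3.84 at 4 weeks, and 0.98, 2.41 and 1.93 at 6 weeks. Its means were 5.15, 3.36 and 1.77 (SE 0.56, limma adjusted p = 5.15e-05, 0.000614 and 0.0245), and the 6-week call was lost without pig 3 (1.46, adjusted p = 0.132), without pig 5 (1.70, adjusted p = 0.106) and without the pig block (adjusted p = 0.0504). The second CXCL14 probe set, fitted without a filter, was not called within pigs at 6 weeks (1.24, limma adjusted p = 0.179).

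**Figure D3:**
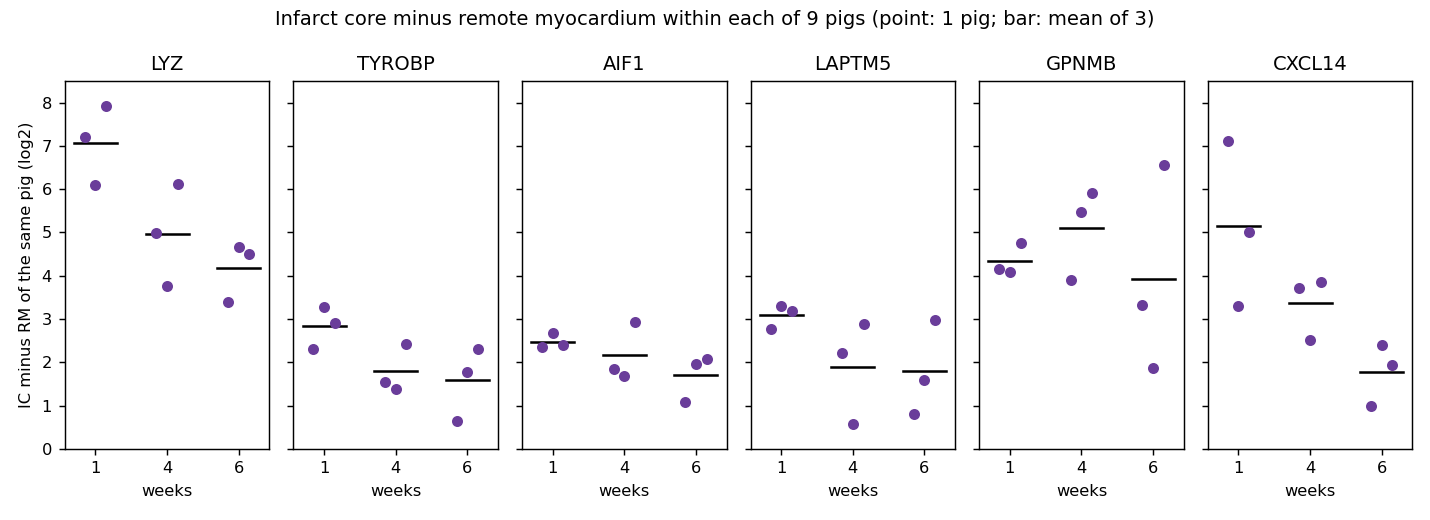
Infarct core minus remote myocardium of the same pig (log2, vertical axis) for the 6 genes at 1, 4 and 6 weeks, with a point for each of 9 pigs and a bar for the mean of 3. Every point lies above 0, from 0.58 for LAPTM5 in pig 20 to 7.91 for LYZ in pig 9.

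The fourth comparison followed IC over time, in different pigs at each stage. Between 1 and 6 weeks 5 of the 6 genes fell, by 4.20 for LYZ (SE 0.83, limma adjusted p = 0.00327), by 3.26 for CXCL14 (SE 0.70, adjusted p = 0.00561), by 2.14 for LAPTM5 (SE 0.40, adjusted p = 0.00246), by 1.66 for TYROBP (SE 0.27, adjusted p = 0.00127) and by 1.26 for AIF1 (SE 0.25, adjusted p = 0.00393). In this contrast 9.10% of all probe sets were called lower. GPNMB differed by -1.04 (SE 0.72, adjusted p = 0.352, 95% interval -2.56 to 0.48). In the fit without a filter the second GPNMB probe set, of lower values, was called lower (-1.45, limma adjusted p = 0.0109). The remaining GPNMB probe sets, under 3 in every array, were not called in this contrast. The median of the 6 genes was -1.90 and that of all probe sets -0.024.

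Between 1 and 4 weeks 1 of the 6 genes was called lower, TYROBP, which fell by 1.37 (SE 0.27, limma adjusted p = 0.00479), and 6.35% of all probe sets were. LYZ differed by -1.94 (adjusted p = 0.131), CXCL14 by -2.03 (adjusted p = 0.0669), LAPTM5 by -0.71 (adjusted p = 0.257), AIF1 by -0.66 (adjusted p = 0.0992) and GPNMB by 0.47 (adjusted p = 0.714). Pig 22 decided part of this count. Without it, LAPTM5 (-1.26, adjusted p = 0.0307), AIF1 (-0.94, adjusted p = 0.0285) and CXCL14 (-2.63, adjusted p = 0.0359) were also called lower, and without pig 8, whose CXCL14 was low, so was CXCL14 (-2.79, adjusted p = 0.0202).

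Between 4 and 6 weeks LAPTM5 alone was called, and fell by 1.44 (SE 0.40, limma adjusted p = 0.0498), where 1.80% of all probe sets were called lower. The call was lost without pig 18 (-1.59, adjusted p = 0.0587), pig 22 (-0.88, adjusted p = 0.209), pig 2 (-1.15, adjusted p = 0.216) or pig 3 (-1.40, adjusted p = 0.119). It was also lost without a filter (adjusted p = 0.0566), with median centring (0.0565), cyclic loess (0.0618), array weights (0.061), a random pig block (0.0605) or a fit of these groups alone (0.299), so that LAPTM5 was called under 6 of 16 alternatives. LYZ differed by -2.26 (adjusted p = 0.135), AIF1 by -0.60 (adjusted p = 0.197), GPNMB by -1.51 (adjusted p = 0.262), CXCL14 by -1.23 (adjusted p = 0.345) and TYROBP by -0.29 (adjusted p = 0.591). In the fit without a filter the second GPNMB probe set was called lower (-1.44, limma adjusted p = 0.0298), and its remaining probe sets were not. Without pig 5, LAPTM5 stayed called and LYZ (-3.11, adjusted p = 0.0338) and AIF1 (-0.90, adjusted p = 0.0376) joined it.

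The change over time was also tested on the difference between IC and RM within pigs. None of the 6 genes was called by limma in any of the 3 contrasts, where 0.0657% of all probe sets were called for 4 against 1 week, 0.320% for 6 against 1 week and 0% for 6 against 4 weeks. At an unadjusted p under 0.05 there were 3, 3 and 0 of the 6 genes, and 11.1%, 14.6% and 6.58% of all probe sets, the last being 802. From 1 to 6 weeks the difference changed by -2.88 for LYZ (SE 0.61, adjusted p = 0.0808), -3.37 for CXCL14 (SE 0.79, adjusted p = 0.105), -1.25 for TYROBP (adjusted p = 0.225) and -0.42 for GPNMB (adjusted p = 0.892). When arrays were weighted, LYZ (-2.75, adjusted p = 0.0169), CXCL14 (-2.56, adjusted p = 0.0354) and TYROBP (-1.27, adjusted p = 0.0362) were called in this contrast.

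The pigs of a stage differed from each other in the same sense for most of the 6 genes. In IC at 4 weeks pig 22 was the highest of the 3 pigs for all 6, by 0.56 to 1.58 above the mean of the stage. In IC at 6 weeks pig 5 was highest for 5 of 6, lying 0.41 to 1.72 above the mean, and pig 3 was highest for CXCL14. Pig 2 was below the mean for all 6 at that stage. In IC at 1 week pig 8 was highest for 5 of 6 and lowest for CXCL14, at -1.52 from the mean, while pig 7 stood at 1.93. Apart from CXCL14, deviations at 1 week ran from -0.39 to 0.27, and those of all 6 genes from -1.14 to 1.58 at 4 weeks and from -1.03 to 1.72 at 6 weeks.

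**Figure D4:**
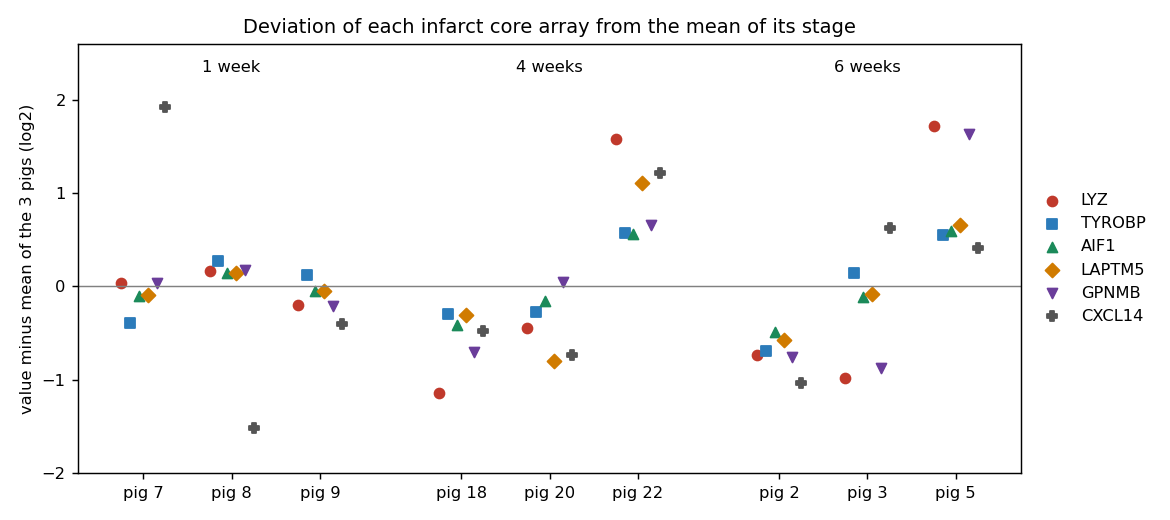
Deviation of each infarct core array from the mean of the 3 pigs of its stage (log2, vertical axis), with a symbol for each of the 6 genes. Pigs 22 and 5 lie above 0 for all 6 genes, pigs 18 and 2 below 0 for all 6, and CXCL14 sets pigs 7 and 8 apart at 1 week.

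Across the 21 arrays the values of any pair of the 6 genes correlated with r between 0.77 and 0.97, a range in which the difference between IC and the other tissue is the main part. After the mean of each of the 7 groups was taken away, r ranged from 0.063 to 0.775. Outside the 6 genes, 4972 genes were searched for the most like pattern over the 21 arrays, in which all arrays share the tissue difference. LYZ was nearest to NPL (r = 0.97), an enzyme of sialic acid breakdown, to the lysosomal protease CTSS (0.97) and to LGMN (0.97), a protease of the same compartment. AIF1 was nearest to IFI30 (0.99), a thiol reductase of lysosomes, BLNK (0.98), an adaptor of immune receptors, and LIPA (0.98), the lysosomal acid lipase.

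TYROBP was nearest to GMFG (0.98), a regulator of actin in blood cells, BLNK (0.98) and CMTM7 (0.98). LAPTM5 was nearest to the class II antigen presentation genes SLA-DMB (0.97) and SLA-DQB1 (0.96) and to NPL (0.96). GPNMB was nearest to ATG4C (0.92), a protease of autophagy, the Notch ligand JAG1 (0.92) and the chemokine AMCF-II (0.91). CXCL14 was nearest to the growth factor IGF1 (0.94), OSTC (0.93) and LMNB1 (0.93). On the residuals from group means, the nearest were ATP2B1 for LYZ (0.86), CMTM7 for TYROBP (0.90), SSR4 for AIF1 (0.90), the Fc receptor FCGR3A for LAPTM5 (0.89), DECR2 for GPNMB (0.82) and WDR3 for CXCL14 (0.86).

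The phagocyte genes outside the 6 were read from lists of receptors, lysosomal proteins, oxidase genes and chemokines. In IC at 1 week, 10 of 11 tested phagocyte receptor and signalling genes were called higher than in CM and none lower, with a median of 1.99. At 4 weeks 8 were higher and 1 lower (median 1.47), and at 6 weeks 7 were higher and 1 lower (median 1.12). Of all probe sets 26.0%, 25.3% and 21.0% were called higher at the 3 stages, and 28.2%, 29.1% and 26.0% lower. These shares also stand beside the IC and CM counts of the lists below. List genes passed the same filter over all 21 arrays, IC among them. The gene that was lower was CEBPB, a myeloid transcription factor, at -0.99 at both stages. The Fc receptor FCGR3A differed by 3.15 at 1 week (SE 0.36, limma adjusted p = 1.3e-06), the integrin chain ITGB2 by 2.94, the Fc receptor chain FCER1G by 2.62 and the toll-like receptor TLR2 by 2.61. The scavenger receptors CD163 and MRC1, named after their values were seen, were higher by 1.99 and 1.36 at 1 week and by 1.12 and 1.74 at 6 weeks.

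Of the 18 genes of this list with a probe set 7 did not pass the filter. Of these, 5 were under 3 in every array, among them the macrophage markers CD14, at most 2.68, and ITGAM, at most 1.37. TLR4 was above 3 in 7 arrays, all in IC, and read 5.06 to 5.53 in IC at 1 week. PLEK was above 3 in 2 arrays and had its highest value, 3.86, in CM. It was at most 1.58 in RM and at most 3.00 in IC at 1 week. MARCO was also under 3 in every array, and FCGR3A is a receptor of natural killer cells too.

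Of 25 tested lysosomal genes, 20 were called higher in IC than in CM at 1 week and 2 lower, the latter being ATP6V0D1 (-0.66) and TPP1 (-0.61). At 4 weeks 19 were higher and 4 lower, and at 6 weeks 15 were higher and 4 lower, with medians of 1.25, 0.85 and 0.70 over the 3 stages. The protease CTSH was higher by 4.19 at 1 week (SE 0.29, limma adjusted p = 7.93e-09), IFI30 by 4.07, the glucuronidase GUSB by 3.84 and CTSS by 3.03. Between 1 and 6 weeks in IC 14 of the 25 fell and none rose, where 9.10% of all probe sets were called lower. Of the 11 receptor genes 4 fell in that contrast. CTSS fell by 1.59 (adjusted p = 0.00165) and IFI30 by 1.52 (adjusted p = 0.00424), while GUSB differed by -0.82 (adjusted p = 0.082).

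All 3 tested genes of the oxidase list were higher in IC at 1 week, CYBA by 3.27 (limma adjusted p = 1.82e-07), NCF1 by 1.05 and the GTPase RAC1 by 0.55. NCF4 and RAC2 of this list, above 3 in 4 arrays each, were not tested. At 6 weeks CYBA alone was called (2.18). Of 11 tested chemokines and receptors, 7 were higher than in CM at 1 week, 6 at 4 weeks and 2 at 6 weeks. The mean of these genes was 5.32 in control pig 30, and 4.13 and 4.31 in pigs 31 and 33. The part of pig 30 in these counts was not tested. Of the 21 genes of this list with a probe set 10 did not pass the filter, and 6 of those were under 3 in every array. The receptor CXCR4 was higher by 3.89 at 1 week and differed by 0.43 at 6 weeks, a fall of 3.46 between the stages (SE 0.38, limma adjusted p = 9.67e-05), and CCL5 fell by 2.50 (adjusted p = 0.00057). The ligand of that receptor, CXCL12, rose instead, from 2.26 above CM at 1 week to 3.28 at 6 weeks (1.02, adjusted p = 0.00731). CXCL16 was higher by 2.28, 2.25 and 1.14. In RM no gene of these 4 lists was called at any stage, where 1.13%, 1.08% and 0.197% of all probe sets were called. Within pigs, IC against RM gave 10, 9 and 7 receptor genes higher at 1, 4 and 6 weeks, 19, 19 and 13 lysosomal genes and 9, 9 and 6 chemokine genes. Called lower were 0, 1 and 1 receptor genes and 3, 3 and 2 lysosomal genes. Of all probe sets 24.7%, 25.5% and 22.6% were called higher within pigs, and 27.9%, 29.3% and 25.0% lower.

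The cell types that share these genes were read in the same way. Of 7 tested pan-leukocyte genes 6 were higher in IC than in CM at 1 week, LCP1 by 4.08, LCP2 by 3.66, CD53 by 3.43 and ARHGDIB by 3.26. Between 1 and 6 weeks in IC 6 of the 7 fell, where 9.10% of all probe sets were called lower. ITGB2 stands in this list and in the receptor list. The mean of the list was 3.27 to 3.60 in CM, 3.11 to 3.90 in RM, 6.32 to 6.57 in IC at 1 week, 4.67 to 5.69 at 4 weeks and 4.26 to 5.44 at 6 weeks, with pigs 22 and 5 the highest of their stages. PTPRC, the leukocyte marker CD45, was under 3 in every array. No neutrophil gene could be tested, since of 9 with a probe set 8 were under 3 in every array. The exception was S100A9 in control pig 30, and in IC the highest value of any of the 9 was 2.63.

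Lymphocyte genes also moved. Both tested T and natural killer cell genes were higher in IC at 1 week, GNLY by 1.63 and GZMH by 1.16, and neither was called at 4 or 6 weeks. Of 11 more that were not tested, 8 passed 3 in some array, such as LCK with 4.33 to 5.12 in IC at 1 week and at most 2.44 in CM. Of the B and plasma cell genes JCHAIN was higher by 4.38, 3.60 and 2.48 and BLNK by 4.24, 3.03 and 2.32 at the 3 stages. BLNK is also made by macrophages and was among the genes nearest to TYROBP and AIF1, so it does not mark B cells apart from them. Since TYROBP is carried by natural killer cells too, these values stand beside it, and their part in it was not tested.

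Fibroblast genes did not follow the same course. Of 11 tested, 10 were higher in IC than in CM at each stage, with medians of 2.59, 2.99 and 2.77, and the mean of the list was 8.71 to 8.91 at 1 week, 9.15 to 9.29 at 4 weeks and 8.57 to 9.12 at 6 weeks. Between 1 and 6 weeks 1 of the 11 rose and 1 fell, where 6.64% of all probe sets were called higher and 9.10% lower. Fibroblasts can make CXCL14, and their part in its values was not tested. Of 13 cardiomyocyte genes 8, 10 and 5 were lower in IC at the 3 stages, and 1 was higher at 1 week. Of all probe sets 28.2%, 29.1% and 26.0% were called lower at these stages. Between stages in IC, 4 of the 13 were lower at 4 than at 1 week, where 6.35% of all probe sets were called lower. At 6 weeks 7 were higher than at 4 weeks and 2 higher than at 1 week, and none lower. In these contrasts 2.09% and 6.64% of all probe sets were called higher. The mean of the cardiomyocyte genes was 11.66 to 11.77 in CM, 11.73 to 11.81 in RM, 10.84 to 11.16 in IC at 1 week, 10.37 to 10.97 at 4 weeks and 11.12 to 11.50 at 6 weeks. The pig with the lowest cardiomyocyte mean of its stage was pig 8 (10.84), pig 22 (10.37) and pig 5 (11.12), and these were the pigs highest in 5, 6 and 5 of the 6 genes. Pig 22 also differed from pigs 18 and 20 in the mean of the endothelial list (6.30 against 5.38 and 5.43) and of the adipocyte list (7.16 against 6.18 and 6.35). The part of these cell types in the values of the 6 genes was not tested.

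**Figure D5:**
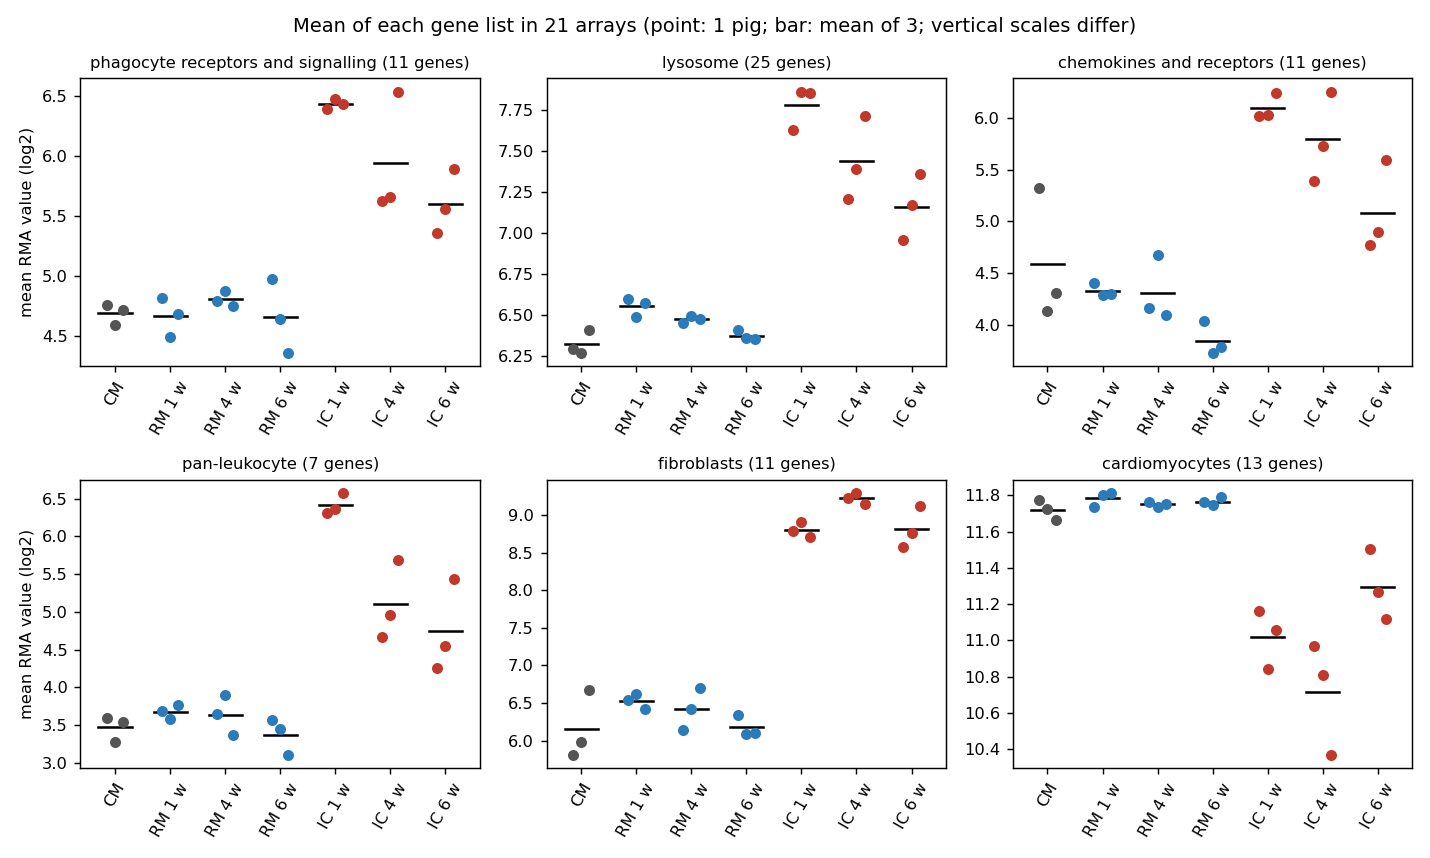
Mean RMA value (log2, vertical axes, which differ in scale) of 6 gene lists in the control (grey), remote (blue) and infarct core (red) arrays, with a point for each pig and a bar for the mean of 3. Group means of the phagocyte receptor, lysosomal and pan-leukocyte lists are highest in the infarct core at 1 week, where pig 22 at 4 weeks reaches the range of the first and second of these, and that of the fibroblast list is highest at 4 weeks.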

How the data were processed

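Total RNA of 21 myocardial biopsies was labelled and hybridized to 1 Affymetrix porcine array each. The deposited values are log2 intensities per probe set, which the authors made by robust multichip average normalization in R over all arrays. No scanner files or detection calls were used here, and RMA compresses differences near background. Groups and pigs came from the labels. Probe sets above 3 in at least 10 arrays (12180 of 24123) were tested with limma 3.58.1 in R 4.3.3, following the study's methods. A model of 7 group means (14 residual degrees of freedom) gave IC and RM against CM and IC between stages, and a model of the 18 IC and RM arrays with pig as a block (6 residual degrees of freedom) gave the differences within pigs. The pairing comes from the pig numbers in the labels, and same-pig residuals correlated by 0.071 to 0.49. Benjamini-Hochberg adjustment ran over all probe sets within each of 16 comparisons. An exact permutation test of 3 against 3 cannot go below p = 0.1 and was not used. Scripts were tested on simulated data.

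The 6 genes and the 15 lists were chosen with earlier results of these data known. LYZ was named by the authors' match to a human gene and the other 5 by the platform annotation. The probe set of highest mean stood for a gene. Named list genes were the up to 4 called with the largest difference in IC at 1 week, and list genes outside this rule (CD163, MRC1, CEBPB, genes under the filter and genes behind small counts) were named after their values were seen, and the likest genes were the 3 with the highest r. Columns of the authors' own comparisons in the supplementary tables were used for gene names only. The 6-week samples carry sample titles numbered apart from the others, and this cannot be told apart from the stage. The alternatives tried were other filters, scalings, variance priors, array weights, thresholds, blocks, groups in the fit, probe set averages and the leaving out of each array or pig.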

Additional observations from a re-analysis of the deposited data

How the results depend on the processing

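Of 285 recomputed counts of called genes, 24 moved by over 1.5 times. The count for IC at 6 against 4 weeks (1 gene) was 0 without a filter, with median centring, cyclic loess, a fit of only these groups, array weights, adjusted p under 0.01 or the replicate block with pig as a random block, and 0 to 3 when 1 array was left out. Array weights gave 2 genes in RM at 1 week, 3 at 4 weeks (LAPTM5 too, 1.00, adjusted p = 0.0169), 1 at 6 weeks and 2 over the stages, 5 in IC at 4 against 1 week and 3 in IC minus RM at 6 against 1 week. Adjusted p under 0.01 left 3 in IC at 6 weeks against CM. Leaving out 1 array gave 3 to 5 there (3 without pig 5), 1 to 4 in IC at 4 against 1 week, and 0 to 1 in RM at 4 weeks and over the stages. The replicate block changed no other call, and without it CXCL14 alone lost its call, within pigs at 6 weeks.

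Signs turned only for genes not called. With 1 array left out, CXCL14 ran from -0.10 to 0.75 in RM at 1 week, -0.35 to 0.50 at 4 weeks (-0.072 with array weights) and -0.15 to 0.70 over the stages, and LYZ from -0.15 to 0.95 in RM at 1 week and -0.35 to 0.30 over the stages. TYROBP ran from -0.57 to 0.051 in IC at 6 against 4 weeks. In IC minus RM at 6 against 4 weeks TYROBP ran from -0.57 to 0.26 (0.042 with array weights) and LAPTM5 from -0.76 to 0.39, and GPNMB from -1.73 to 0.60 at 6 against 1 week. Averaging the probe sets above 3 in any array, chosen after seeing the data, cost CXCL14 its calls at 6 weeks (1.62, adjusted p = 0.0568 against CM and 1.51, adjusted p = 0.061 within pigs). Median centring moved the median of all probe sets in IC at 1 week from -0.058 to -0.17. With 3 pigs a group, values near 3 and no detection calls limit LYZ, GPNMB and CXCL14 most outside IC. The causes were not tested.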

Other observations

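The 2 mast cell genes tested were called higher in IC than in CM at 4 and 6 weeks and not at 1 week. MS4A2, the mast cell Fc receptor chain, differed from CM by 0.57 in IC at 1 week (limma adjusted p = 0.208) and was higher by 1.77 at 4 weeks (adjusted p = 0.000714), then 1.47 at 6 weeks (adjusted p = 0.00405). MCT7, a mast cell protease, rose by 0.86 in IC between 1 and 4 weeks (adjusted p = 0.0107).

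Of 6 tested smooth muscle and myofibroblast genes 4 were higher in IC than in CM at each stage and 1, SMTN, was lower (-1.49 at 1 week), with TAGLN at 3.46, CNN1 at 3.22, ACTA2 at 2.77 and CALD1 at 2.10 at 1 week. ACTA2 was also called in RM at 4 weeks (0.86, limma adjusted p = 0.0218). Of 8 endothelial genes, ESAM (-0.99) and CDH5 (-0.85) were lower and ENG (0.50) higher in IC at 1 week, where 28.2% of all probe sets were called lower and 26.0% higher, and ERG was lower in RM at 1 week (-1.05, adjusted p = 0.0465). Of the fibroblast genes FN1 was higher by 4.64, POSTN by 4.60, CDH11 by 4.38 and THY1 by 3.73 in IC at 1 week, and CDH11 was called in RM at 1 week (0.96, adjusted p = 0.0497). Of the cardiomyocyte genes RYR2 was lower by -1.91, CKM by -1.48, PLN by -1.11 and MYL3 by -0.91. LPL, of the adipocyte list, was lower in IC at 1 week (-1.82), 1 of 3 tested in that list. ADIPOQ, of the same list, was above 3 in 1 array and was not tested, so LPL alone is no reading of adipocytes. The 1 erythroid gene tested, HBB, differed by -0.27 at 1 week and was lower at 4 (-0.42) and 6 weeks (-0.46).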
